A study of Mus musculus with 201 samples.

Results

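The 9 genes described here encode proteins that write, remove or are tied to the removal of cytosine methylation in DNA. They are *Gadd45a*, *Gadd45b* and *Gadd45g*, the ten-eleven translocation genes *Tet1*, *Tet2* and *Tet3*, and the DNA methyltransferase genes *Dnmt1*, *Dnmt3a* and *Dnmt3b*. They were chosen by name, with earlier results of these data known. All 9 were found among the 42609 gene symbols that the 3 tables of the series share. The tables hold RNA-seq of individual dentate granule cells (DGCs), the principal neurons of the hippocampal dentate gyrus, amplified as whole cells or as nuclei.

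In mammalian DNA, cytosines followed by guanine are methylated by DNMT3A and DNMT3B, which place new marks, and by DNMT1, which copies marks to the new strand after replication. The TET enzymes oxidize methylated cytosine to hydroxymethylcytosine and further products, which base excision repair can replace by plain cytosine. The GADD45 proteins are small stress-inducible adaptors without catalytic activity of their own that bind kinases and repair factors. *Gadd45b* is a classic activity-induced gene of the dentate gyrus and has been tied to demethylation of growth factor gene promoters there. Neurons no longer divide, yet DNMT3A and the TET enzymes remain active in them, and hydroxymethylcytosine is abundant in brain DNA.

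The study asked how the transcriptome of a DGC changes when the neuron has been active. Whole cells came from Prox1-GFP mice, in which the *Prox1* promoter drives a cytoplasmic green fluorescent protein. These mice were injected with pentylenetetrazole (PTZ), a GABA(A) receptor antagonist that causes seizures, or with saline, and GFP+ cells were sorted after protease dissociation 1 h later. Nuclei came from wild-type C57BL/6 mice of 8 weeks, released by Dounce homogenization without protease.

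A mouse placed in a new environment (NE) explored it for 15 min, spent 1 h in its home cage (HC) and gave PROX1+ nuclei sorted by staining for FOS protein into FOS+ and FOS- groups. An HC mouse that stayed in its cage gave NEUN+PROX1+ nuclei, amplified on another instrument. The NE nuclei were amplified under 4 conditions that combine a template-switching oligonucleotide (TSO) at 1 or 10 µM with spike-in RNA (ERCC) diluted 1:200 or 1:2000. Each condition held both sort groups. The age of the Prox1-GFP mice was not given in the sources used here.

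The comparisons used 30 of 35 PTZ-treated cells, 38 of 47 saline-treated cells, 40 of 48 FOS+ nuclei, 41 of 48 FOS- nuclei and all 23 HC nuclei. Total counts were between 67212 and 5129240 in whole cells, between 63775 and 1060516 in NE nuclei and between 107647 and 278779 in HC nuclei. The whole cells of each group came from a pool of 2 mice and the nuclei of each set from 1 mouse, so each group was 1 biological sample. No p value is therefore given, and an SD describes the spread over cells. The HC nuclei, the NE nuclei and the whole cells differ in preparation and amplification, so values from these 3 tables are set side by side and not tested against each other.

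The granule cell marker *Prox1* was detected in all 68 whole cells, in 33 of 40 FOS+ nuclei, in 34 of 41 FOS- nuclei and in 14 of 23 HC nuclei. The summed level of 5 granule cell markers was above 0 in every cell, with medians of 4297 TPM (RNA level scaled to gene length and to the total of each cell) in FOS+ and 6348 TPM in FOS- nuclei. Of this, *Calb1* alone had medians of 3825 and 5600 TPM. *Dsp* was detected in 11 FOS+ and 9 FOS- nuclei and *C1ql2* in 18 and 25. In HC nuclei the sum was lower, with a median of 644 TPM and a lowest value of 25.9 TPM. Markers of interneurons (3 genes) exceeded 100 TPM in 12 FOS+ and 6 FOS- nuclei, in FOS+ nuclei always through *Gad1*, while *Gad2* reached at most 68.3 TPM and *Slc32a1* was at 0 in all of them. Glial or endothelial markers (13 genes) exceeded 100 TPM in 9 FOS+ and 8 FOS- nuclei. The difference between FOS+ and FOS- nuclei in mean log2(TPM + 1) without the nuclei over the interneuron limit was 3.74 for *Gadd45b*, 3.16 for *Gadd45g* and 4.37 for *Tet3*. Without those over the glial or endothelial limit it was 3.68, 4.17 and 4.20, so that the 3 genes passed the size rule given below in either case.

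FOS+ nuclei held more RNA of *Gadd45b*, *Gadd45g* and *Tet3* than FOS- nuclei of the same mouse. The difference in mean log2(TPM + 1) was 3.31 for *Gadd45b*, 4.18 for *Gadd45g* and 4.20 for *Tet3*. The differences of *Tet2* and *Dnmt3a* (1.31 and 0.93) did not reach the size rule, and *Dnmt1*, *Tet1*, *Gadd45a* and *Dnmt3b* were found in few nuclei of either group. A gene was assessed if its TPM was above 1, termed detected, in at least 10% of the nuclei of both groups together, and called higher or lower if its mean log2(TPM + 1) differed by at least 2. Of the 6 members assessed, 3 were higher and 0 were lower. Among all 13751 genes assessed, 1.69% were higher by this rule and 0.916% were lower. The same 3 members had a detection share higher by at least 20 percentage points, as did 5.13% of all genes. Ranked by the difference, *Tet3* was number 24, *Gadd45g* number 26 and *Gadd45b* number 49 of the 13751. The median difference was 2.31 over the 6 members and -0.11 over all genes assessed, and because the comparison rests on 1 mouse it has no replicate check.

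**Figure D1:**
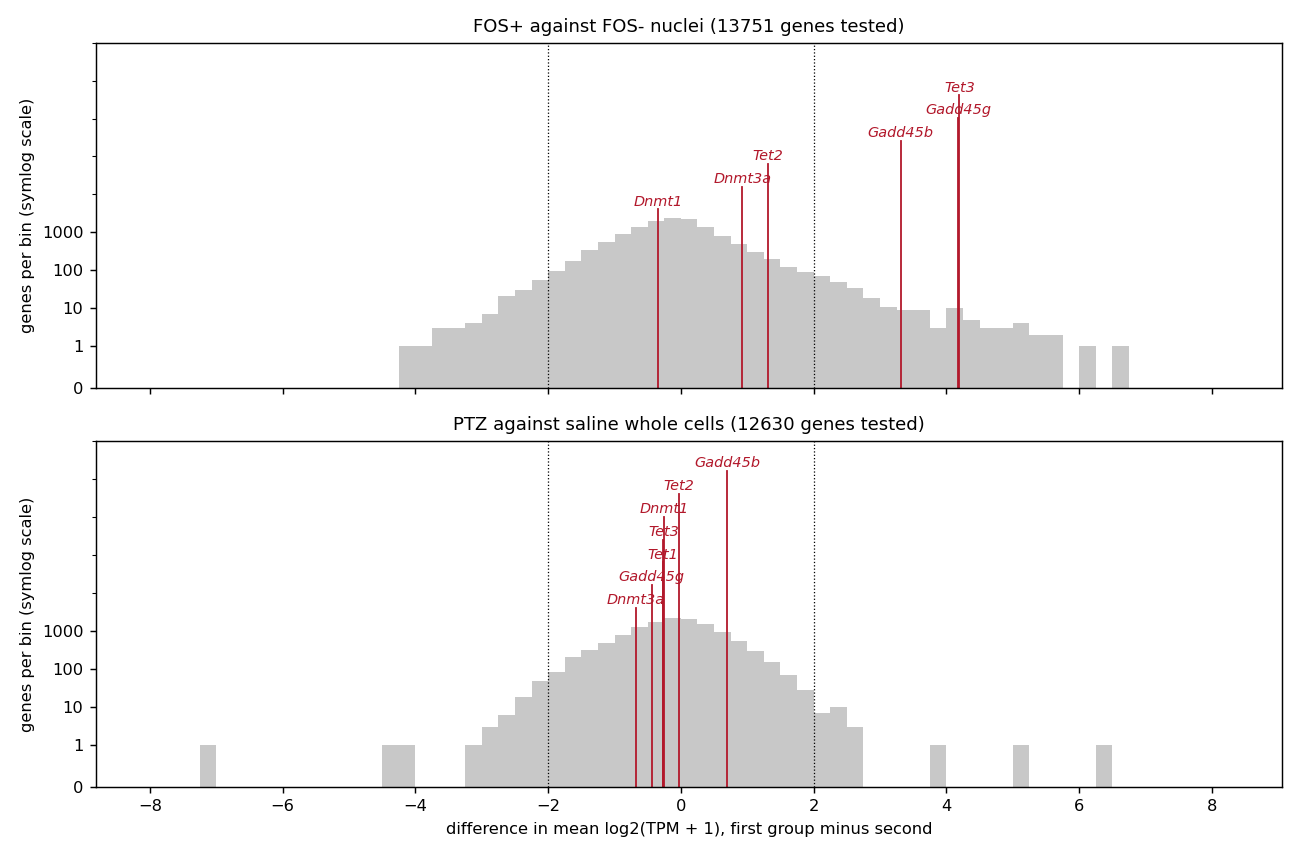
Difference in mean log2(TPM + 1) for all genes assessed (x axis), FOS+ minus FOS- nuclei above and PTZ-treated minus saline-treated cells below, with genes per bin of 0.25 on a symlog scale (y axis, linear below 1). Red lines mark the members assessed, their heights only separate the names, and dotted lines mark differences of 2: *Gadd45b*, *Gadd45g* and *Tet3* lie beyond it in nuclei and no member does in whole cells.

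The stretches upstream of the start sites of these 3 genes are printed because the genes differed together. They are the RefSeq promoter windows of GRCm38.p6, up to 250 bases before the start and without bases that GENCODE counts as exons of protein-coding genes. The *Gadd45b* stretch is chr10:80929841-80930072 on the plus strand, the *Gadd45g* stretch chr13:51846425-51846674 on the plus strand and the *Tet3* stretch chr6:83441679-83441928 on the minus strand. Capitals mark matches on either strand to the TATA box, the CCAAT box, the E-box or the EGR motif, whose letters are given after the sequences.
Gadd45b: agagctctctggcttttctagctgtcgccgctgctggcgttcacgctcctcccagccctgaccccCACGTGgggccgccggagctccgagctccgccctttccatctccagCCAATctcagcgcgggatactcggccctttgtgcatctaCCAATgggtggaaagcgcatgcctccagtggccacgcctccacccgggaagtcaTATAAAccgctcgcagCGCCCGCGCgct
Gadd45g: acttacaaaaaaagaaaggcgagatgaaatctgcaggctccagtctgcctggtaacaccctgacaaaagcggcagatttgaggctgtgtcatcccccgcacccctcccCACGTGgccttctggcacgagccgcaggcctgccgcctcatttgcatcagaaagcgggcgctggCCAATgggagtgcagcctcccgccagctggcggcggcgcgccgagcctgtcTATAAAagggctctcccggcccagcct
Tet3: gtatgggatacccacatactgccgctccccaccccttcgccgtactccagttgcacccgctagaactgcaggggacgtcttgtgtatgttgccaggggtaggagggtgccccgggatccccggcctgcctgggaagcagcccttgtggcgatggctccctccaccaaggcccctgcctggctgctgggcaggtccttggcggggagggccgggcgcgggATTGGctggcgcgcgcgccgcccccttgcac

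The *Gadd45b* and *Gadd45g* stretches each held a TATA box, starting 46 and 27 bases before the RefSeq start, and an E-box. All 3 held a CCAAT box. Of the 32851 promoter windows in the RefSeq table, 12.4% held the TATA box letters TATAAA within 250 bases upstream. The E-box letters CACGTG were in 6.02% of them and the CCAAT box in 33.8%. The EGR motif GCGNGGGCG was in 4.70%, and of the 3 stretches in that of *Gadd45b*. Members not called higher also held some of these motifs. Windows of *Gadd45a* and *Dnmt1* held the CCAAT box, a *Dnmt3a* window the E-box, and windows of *Tet1*, *Dnmt3a* and *Dnmt3b* the EGR motif. Their windows held no TATA box. The cAMP response element TGACGTCA (in 1.55% of all windows), its shorter core TGACG (17.8%) and the AP-1 motif TGANTCA (6.75%) matched none of the 3 stretches. They matched no window of the other members either. The TATA, CCAAT and E-box motifs were added after the sequences had been seen. Guanine and cytosine made up 65.1% of the *Gadd45b* stretch, 62.0% of the *Gadd45g* stretch and 69.6% of the *Tet3* stretch. *Tet3* has further annotated starts, up to 83459084 on the same chromosome, which the window does not cover.

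*Gadd45b* encodes the GADD45 protein best known for rapid induction by neuronal activity. The gene spans chr10:80930073-80932204 in GRCm38 and has up to 4 exons. It was detected in 19 of 40 FOS+ nuclei (47.5%, exact 95% interval from 31.5 to 63.9%) and in 5 of 41 FOS- nuclei (12.2%, from 4.08 to 26.2%). The lowest, median and highest levels were 0, 0 and 1589 TPM in FOS+ nuclei, and 0, 0 and 187 TPM in FOS- nuclei. Levels in FOS+ nuclei were split: 21 were below the limit, and the 19 above it ran from 13.5 to 1589 TPM with a median of 473 TPM. The ranges of both groups overlap at 0 and also among nuclei with the gene detected. The highest FOS- level, 187 TPM, lay within the range of the detected FOS+ levels. The mean log2 difference of 3.31 was smaller than the SD in FOS+ nuclei (4.37) and larger than that in FOS- nuclei (1.87). Summed over nuclei and scaled to the group's total count, *Gadd45b* had 205 CPM in FOS+ and 7.88 CPM in FOS- nuclei, a ratio of 26 (exact interval of the counts from 21.5 to 31.8). The intervals of CPM ratios cover counting error only, because copies made by PCR could not be told from separate molecules, and those of detection shares cover the sampling of nuclei or cells within a group, not differences between mice. The ratio was 46.5 without FOS- nucleus 44, which held 45.5% of the FOS- counts, and 23.3 without FOS+ nucleus 6.

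*Gadd45g*, the family member known for roles in stress signalling and neural development, lies at chr13:51846678-51848468 and has up to 4 exons. It was detected in 26 of 40 FOS+ nuclei (65%, from 48.3 to 79.4%) and in 9 of 41 FOS- nuclei (22%, from 10.6 to 37.6%). FOS+ levels had a lowest value of 0, a median of 61.9 and a highest of 2848 TPM, and FOS- levels 0, 0 and 339 TPM. Where it was detected, the median was 295 TPM in FOS+ and 3.88 TPM in FOS- nuclei, so most of the FOS- detections were at low level. The mean log2 difference of 4.18 was just below the SD in FOS+ nuclei (4.19) and above that in FOS- nuclei (2.05). Summed levels were 275 and 18.2 CPM, a ratio of 15.1 (from 13.3 to 17.2). Without FOS- nucleus 29, which held 59.9% of the FOS- counts, the ratio was 35.6, and without FOS+ nucleus 29 it was 12.3.

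*Gadd45a*, the DNA damage-inducible founder of the family, was detected in 4 FOS+ nuclei and 1 FOS- nucleus and was not assessed. Its highest level, 871 TPM, was in that FOS- nucleus, and the 4 FOS+ nuclei ran from 12.2 to 172 TPM. The gene (chr6:67035096-67037457, minus strand) shares 19.1% of its exon bases with the noncoding gene *E230016M11Rik* on the opposite strand. The libraries do not keep strand, so reads there cannot be told apart. Of the summed mean GADD45 level in FOS+ nuclei, *Gadd45g* made up 57.9%, *Gadd45b* 41.1% and *Gadd45a* 0.929%. At least 1 GADD45 gene was detected in 31 of 40 FOS+ nuclei and in 14 of 41 FOS- nuclei.

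**Figure D2:**
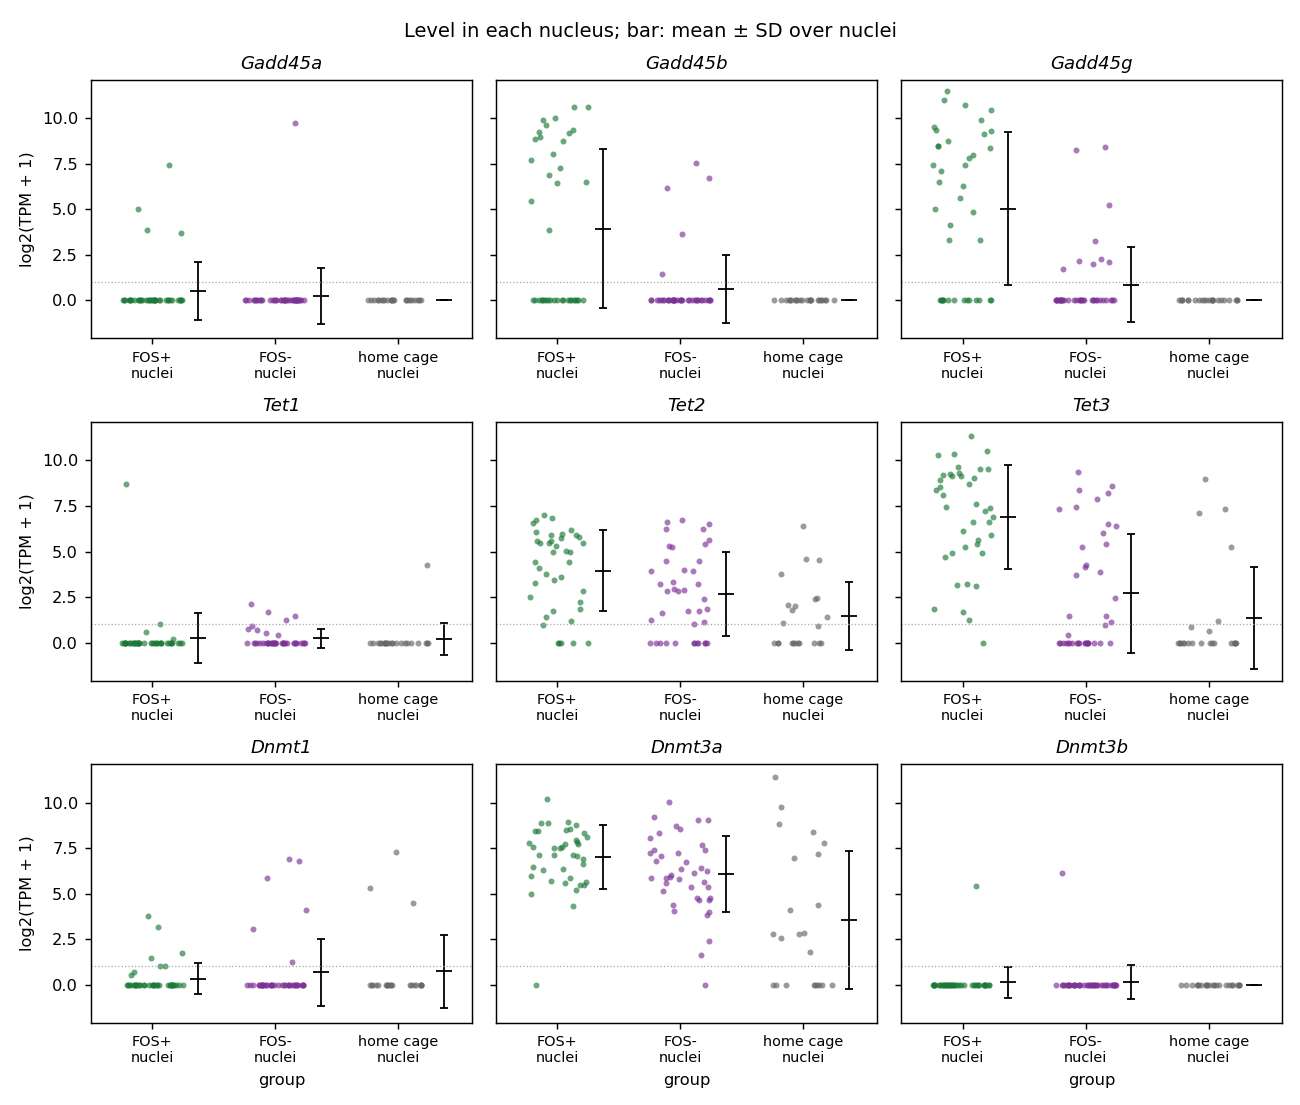
Level of each gene as log2(TPM + 1) (y axis) in each FOS+, FOS- and HC nucleus (x axis). Points are nuclei, black bars the mean ± SD over nuclei and the dotted line the detection limit of 1 TPM: *Tet3* was above the limit in 39 of 40 FOS+ nuclei and 20 of 41 FOS- nuclei, and all 3 GADD45 genes were at 0 in every HC nucleus.

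*Tet3*, a TET gene known to be abundant in adult neurons, spans chr6:83362373-83459084 on the minus strand, with up to 12 exons. It was detected in 39 of 40 FOS+ nuclei (97.5%, from 86.8 to 99.9%) and in 20 of 41 FOS- nuclei (48.8%, from 32.9 to 64.9%). FOS+ levels had a lowest value of 0, a median of 170.1 and a highest of 2567 TPM, against 0, 0.94 and 653 TPM in FOS- nuclei. The FOS+ median thus lay far above that of FOS- nuclei, while single FOS- nuclei reached into the FOS+ range. Mean log2(TPM + 1) was 6.89 ± 2.86 (SD, 40 nuclei) against 2.70 ± 3.26 (SD, 41 nuclei), a difference larger than either SD. Summed levels were 1068 and 65.3 CPM, a ratio of 16.4 (from 15.3 to 17.5). Leaving out each nucleus in turn moved this ratio between 13.9 and 18.7.

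*Tet2*, which encodes the TET protein without a DNA-binding CXXC domain, was detected in 34 of 40 FOS+ nuclei (85.0%) and in 29 of 41 FOS- nuclei (70.7%), a difference of 14.3 percentage points (interval from -5.55 to 33). The lowest, median and highest levels were 0, 25.4 and 127 TPM in FOS+ nuclei and 0, 6.09 and 107 TPM in FOS- nuclei. The ranges nearly coincide and the mean log2 difference of 1.31 is smaller than the SD of either group (2.24 and 2.30). The summed levels were 196 and 106 CPM, a ratio of 1.86 (from 1.74 to 1.98).

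*Tet1* was detected in 2 FOS+ and 4 FOS- nuclei and was not assessed. In FOS+ nuclei a single nucleus at 421 TPM held 89.3% of its counts. At least 1 TET gene was detected in all 40 FOS+ nuclei and in 34 of 41 FOS- nuclei. Among nuclei with a TET gene detected, *Tet3* was the highest of the 3 in 31 of 40 FOS+ nuclei and in 15 of 34 FOS- nuclei, where *Tet2* was the highest in the other 19. *Tet3* made up 89.8% of the summed mean TET level in FOS+ and 77.1% in FOS- nuclei.

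*Dnmt3a*, the main de novo methyltransferase of mature neurons (chr12:3806007-3914443, up to 23 exons), was detected in 39 of 40 FOS+ and 40 of 41 FOS- nuclei. The lowest, median and highest levels were 0, 159 and 1183 TPM in FOS+ nuclei and 0, 63.2 and 1039 TPM in FOS- nuclei. The FOS+ median was higher, but the mean log2 difference of 0.93 was smaller than the SD of either group (1.74 and 2.08) and did not reach the size rule. Summed levels were 348 and 271 CPM, a ratio of 1.28 that was 1.01 without FOS+ nucleus 27 and 1.68 without FOS- nucleus 27. The gene shares 133 exon bases with the antisense gene *Dnmt3aos*, and reads there cannot be told apart. *Dnmt3a* made up 99.2% of the summed mean DNMT level in FOS+ and 94.3% in FOS- nuclei.

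*Dnmt1*, the maintenance methyltransferase (chr9:20907209-20959888, up to 39 exons), was detected in 5 FOS+ nuclei (12.5%, from 4.19 to 26.8%) and 6 FOS- nuclei (14.6%, from 5.57 to 29.2%). Its highest level was 12.6 TPM in FOS+ and 116.5 TPM in FOS- nuclei, and the summed CPM ratio was 0.171 (from 0.118 to 0.238), although the mean log2 difference was -0.35. Of its FOS- counts, 36.4% came from a single nucleus, and leaving out each nucleus in turn gave ratios from 0.115 to 0.264, the latter without FOS- nucleus 9. *Dnmt3b*, a de novo methyltransferase used mainly in embryonic development, was detected in 1 FOS+ and 1 FOS- nucleus. It shares 13.5% of its distinct 31-base words with the related gene *Dnmt3c*, between which the authors' counting had to divide reads.

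The 3 higher genes and the 2 that were detected in most nuclei each had a higher mean in FOS+ nuclei within all 4 amplification conditions. Of all genes assessed, 7.5% were higher in all 4 conditions, and 1.43% were also higher by at least 2 over all nuclei. The size varied with the condition. For *Gadd45b* the difference in mean log2(TPM + 1) was 2.96, 3.89, 1.99 and 4.50 at 1 µM TSO with ERCC 1:200, 1 µM with 1:2000, 10 µM with 1:200 and 10 µM with 1:2000. For *Gadd45g* it was 4.71, 5.10, 1.89 and 5.53 in that order, and for *Tet3* 6.29, 4.84, 1.13 and 4.62. The third of these conditions, with the smallest difference for all 3 genes, had median totals of 152332 counts in FOS+ and 79166 counts in FOS- nuclei, the lowest of the 4. The part of depth in this result was not tested.

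*Gadd45g* was detected in 6 of 8 FOS+ and 6 of 10 FOS- nuclei at 1 µM TSO with ERCC 1:2000, which held 6 of its 9 FOS- detections. This condition had the highest median totals, 687744 and 586358 counts. At a common depth of 50000 counts per nucleus, computed from each count and total, *Gadd45g* detection was 57.5% in FOS+ and 8.14% in FOS- nuclei. The same computation gave 45.7 and 8.40% for *Gadd45b*, 92.1 and 42.4% for *Tet3*, 78.4 and 59.5% for *Tet2*, and 93.5 and 82.9% for *Dnmt3a*. The order of the groups was the same with and without thinning for the first 4 of these, whereas the *Dnmt3a* shares were 97.5 and 97.6% before it.

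**Figure D3:**
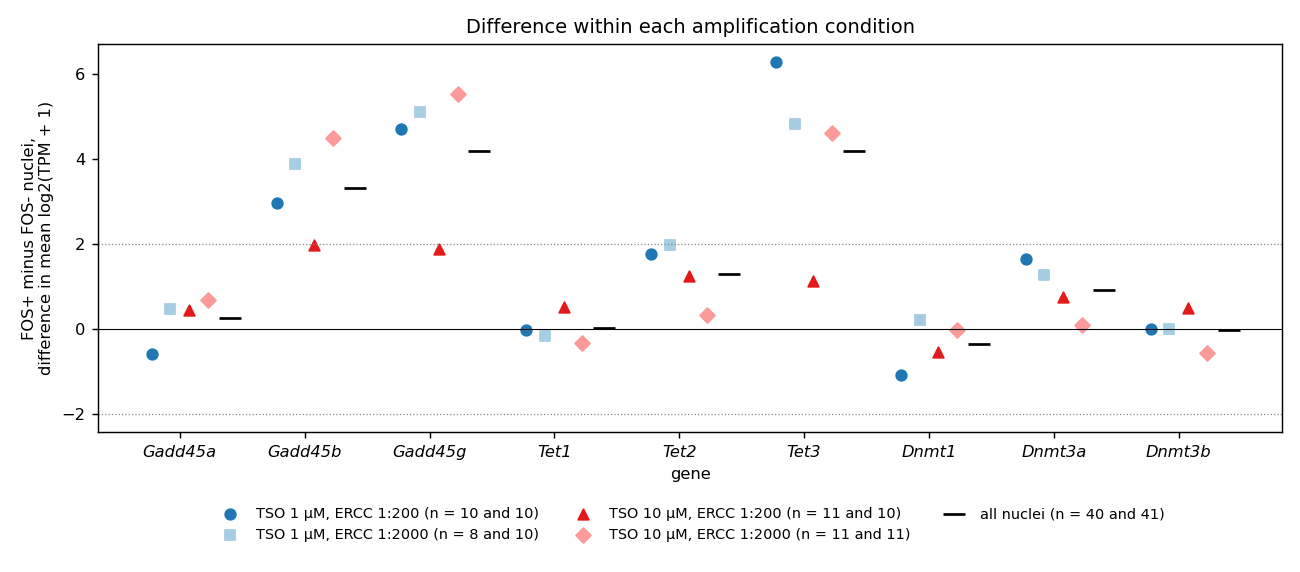
Difference in mean log2(TPM + 1), FOS+ minus FOS- nuclei (y axis), for each gene (x axis) within each amplification condition (symbols) and over all 40 and 41 nuclei (black bars). Dotted lines mark differences of 2 in either direction: *Gadd45b*, *Gadd45g* and *Tet3* were higher in all 4 conditions, with the smallest difference at 10 µM TSO and ERCC 1:200.

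Detection of the 3 higher genes was also counted nucleus by nucleus. Of the 40 FOS+ nuclei, 15 had all of *Gadd45b*, *Gadd45g* and *Tet3* above the limit, and of the 41 FOS- nuclei 0 did, which allows a share of up to 7.32%. These counts follow in part from the share of each gene alone, and *Tet3* was in 39 of the 40 FOS+ nuclei, among them all 26 with *Gadd45g* and 18 of the 19 with *Gadd45b*. *Arc*, an immediate early gene (IEG) whose protein acts at synapses, was detected in 31 FOS+ nuclei. It was present in 25 of the 26 with *Gadd45g* and 6 of the 14 without it, and in 18 of the 19 with *Gadd45b* and 13 of the 21 without it. *Fos* mRNA, the RNA of the protein used for the sort, was detected in 12 FOS+ nuclei, of which 11 had *Gadd45g*, 9 had *Gadd45b* and 12 had *Tet3*. *Bdnf*, the neurotrophin gene reported as a target of GADD45B-linked demethylation, was detected in all 19 FOS+ nuclei with *Gadd45b* and in 16 of the 21 without it. Within the 40 FOS+ nuclei, Pearson's r of log2(TPM + 1) with *Arc* was 0.57 for *Gadd45g*, 0.52 for *Tet3* and 0.45 for *Gadd45b*. With *Fos* it was 0.44, 0.08 and 0.46 in that order. These values describe nuclei of 1 mouse that differ in amplification condition and in depth, with totals from 80096 to 1035170 counts. The part of depth and condition in r was not tested. Among the 3 genes r was 0.41 between *Gadd45b* and *Gadd45g*. It was lower for *Tet3*, 0.21 with *Gadd45g* and 0.12 with *Gadd45b*. In FOS- nuclei *Tet3* was in 4 of the 9 with *Gadd45g*, in 2 of the 5 with *Gadd45b* and in 20 of all 41.

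Between 1 and 6 of the 9 genes were detected in a FOS+ nucleus, with a median of 4, and between 1 and 5 in a FOS- nucleus, with a median of 3. By a search over 10298 genes detected in at least 20% of the 81 NE nuclei, the profiles most like *Gadd45g* were those of *1700016P03Rik* (r = 0.69), *Arc* (0.69) and *Spry2* (0.67). Those most like *Gadd45b* were *1700016P03Rik* (0.65), *Pim1* (0.63) and *Neat1* (0.62), and those most like *Tet3* were *Vgf* (0.64), *Arc* (0.61) and *Rapgef6* (0.58). The values for *Tet2* were lower, at most 0.41 (*Gm26520*), and for *Dnmt3a* *Malat1* was first (0.50). These correlations span both sort groups, so any gene that differs between the groups takes part of its r from that difference. Their r with the log2 total count was 0.31 for *Gadd45g*, 0.24 for *Gadd45b* and 0.14 for *Tet3*.

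Around the 9 genes, 43 further genes of the same pathways were listed in 6 groups. Of the 29 assessed in NE nuclei, 2 were higher in FOS+ nuclei (*Bdnf* and *Mbd2*) and 1 was lower (*Zbtb38*), with a median difference of -0.04 against -0.11 over all genes assessed. Of all genes 1.69% were higher and 0.916% lower. The lists were drawn up with earlier results of these data known.

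Among the 10 readers of methylated DNA, 9 were assessed. *Mbd2*, which encodes a methyl-CpG binding repressor, was detected in 17 of 40 FOS+ and 2 of 41 FOS- nuclei, with highest levels of 778 and 46.7 TPM and a mean log2 difference of 2.11. Within the 4 conditions its difference was 0.20 and 1.24 at 1 µM TSO and 3.37 and 3.25 at 10 µM. *Mbd2* did not reach the size rule with all deposited nuclei or with a pseudocount of 10. *Zbtb38*, a zinc finger protein that binds methylated DNA, was detected in 8 FOS+ and 20 FOS- nuclei, a difference of -2.11. Its difference was below 0 in 3 conditions and 0.07 at 10 µM TSO with ERCC 1:200, and it did not reach the size rule with all deposited nuclei, with a pseudocount of 10 or without the nuclei that carried glial or endothelial markers.

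Among the 11 genes that excise oxidized or deaminated cytosine and repair the gap, 9 were assessed and 0 passed the size rule. The largest differences were for *Polb*, the repair polymerase (-1.71), and *Tdg*, the glycosylase that removes oxidized cytosine (-1.40). Of the methyltransferase partners 4 of 7 were assessed and of the TET partners 2 of 5, none past the rule. *Ogt*, the sugar transferase bound by TET proteins, had means of 7.55 in FOS+ and 8.03 in FOS- nuclei on the log2 scale. Of 8 GADD45 partners 4 were assessed and 0 passed. All 4 had differences below 0, as most genes did: of all 13751 genes assessed 5853 had one above 0, and the median was -0.11. Among the 4, *Map3k4*, the kinase that GADD45 proteins activate, had the most negative difference (-1.49), with detection in 18 FOS+ and 31 FOS- nuclei. *Bdnf* was detected in 35 FOS+ and 16 FOS- nuclei and differed by 4.58, whereas *Fgf1*, the other reported target, was detected in 3 and 4 nuclei and was not assessed.

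Between PTZ-treated and saline-treated whole cells, 0 of the 7 members assessed were higher and 0 were lower by the size rule. Of all 12630 genes assessed there, 0.182% were higher and 0.633% were lower. *Gadd45g* had the highest median level of the 9 genes in both groups. Of the 6 IEGs used as an activity check 0 had a higher mean in PTZ-treated cells, and their median difference was -1.46. *Arc* was detected in 14 of 30 PTZ-treated and 17 of 38 saline-treated cells and *Fos* in 26 and 30. Of the 6 only *Egr1* passed the size rule, lower in PTZ-treated cells with a difference of -2.11. The study reported IEG RNA in dissociated whole cells regardless of PTZ. Among the members 0 had a detection share higher after PTZ by at least 20 percentage points, as 3.52% of all genes had.

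*Gadd45g* was detected in 21 of 30 PTZ-treated cells (70.0%, from 50.6 to 85.3%) and in 30 of 38 saline-treated cells (78.9%, from 62.7 to 90.5%). The lowest, median and highest levels were 0, 102 and 5070.4 TPM after PTZ and 0, 71.8 and 6818 TPM after saline. The 2 groups overlap over nearly their whole range, and the mean log2 difference of -0.44 is far below the SDs of 4.20 and 4.4. Without the 19 PTZ-treated and 25 saline-treated cells that had an interneuron marker above 100 TPM, the *Gadd45g* difference turned to 1.85, over 11 and 13 cells, and did not reach the size rule either. That marker was always *Gad1*: *Gad2* reached at most 0.26 TPM after PTZ and 0.71 TPM after saline, and *Slc32a1* was at 0 throughout. *Prox1* was detected in every whole cell, and whether the cells left out were interneurons was not tested. *Gadd45b* was detected in 7 PTZ-treated cells (23.3%, from 9.93 to 42.3%) and in 4 saline-treated cells (10.5%, from 2.94 to 24.8%), a difference of 12.8 percentage points (from -6.77 to 33.2). Its highest levels were 217 and 131 TPM and its mean log2 difference was 0.70. The ratio of summed *Gadd45b* CPM was 5.45, but it was 2.15 without PTZ-treated cell 15, which held 63.7% of the PTZ counts, and 8.81 without saline-treated cell 23. *Gadd45a* was detected in 4 PTZ-treated cells and 1 saline-treated cell, with highest levels of 93.2 and 23.6 TPM.

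*Tet3* was detected in 18 of 30 cells after PTZ and in 27 of 38 cells after saline, with medians of 10.2 and 17.5 TPM and highest levels of 276 and 197 TPM. Its mean log2 difference of -0.26 became 0.48 without the cells with an interneuron marker and 0.08 without those with a glial or endothelial marker. *Tet2* was detected in 10 and 13 cells with highest levels of 64.9 and 46.9 TPM. *Tet1*, seen in 6 of 81 NE nuclei, was above the limit in 8 cells after PTZ and in 11 after saline, and its highest levels were 338 and 150.2 TPM. *Tet1* was the highest TET gene in 4 of the 23 PTZ-treated and 6 of the 33 saline-treated cells that had any.

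*Dnmt3a* was detected in 17 of 30 PTZ-treated cells (56.7%, from 37.4 to 74.5%) and in 29 of 38 saline-treated cells (76.3%, from 59.8 to 88.6%), a difference of -19.6 percentage points (from -42.5 to 4.71). Its medians were 6.46 and 9.37 TPM, its highest levels 202 and 220.2 TPM and its mean log2 difference -0.68. Cells with a *Gad1* level above 100 TPM made up 19 PTZ-treated and 25 saline-treated cells, and without them the *Dnmt3a* difference was -2.26 over 11 and 13 cells. *Dnmt1* was detected in 12 and 16 cells with highest levels of 132 and 123 TPM. *Dnmt3b* was detected in 0 of 30 PTZ-treated cells, which allows a share of up to 10.0%, and in 3 of 38 saline-treated cells. Of the 43 pathway genes, 32 were assessed in whole cells and 0 passed the size rule in either direction, with a median difference of -0.03 against -0.08 over all genes.

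**Figure D4:**
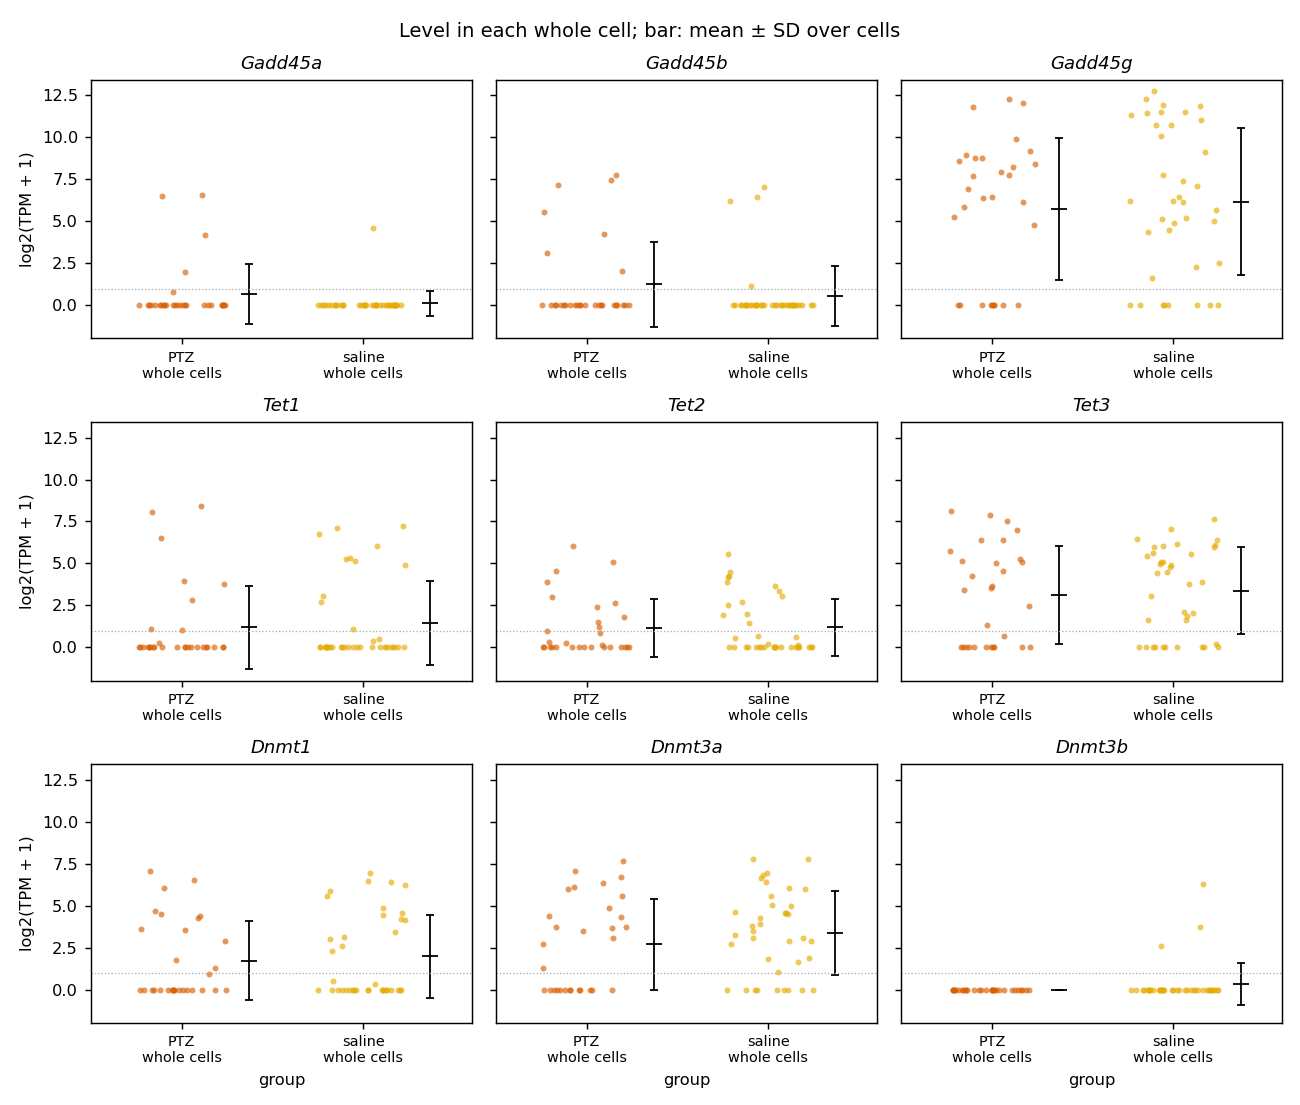
Level of each gene as log2(TPM + 1) (y axis) in each PTZ-treated and saline-treated whole cell (x axis). Points are cells, black bars the mean ± SD over cells and the dotted line the detection limit of 1 TPM: the groups overlap for all 9 genes, and *Gadd45g* was above the limit in 21 of 30 and 30 of 38 cells.

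*Gadd45g* also covaried with IEGs among whole cells of either treatment. Its r with *Fos* was 0.64 in the 30 PTZ-treated cells and 0.58 in the 38 saline-treated cells, and its r with *Arc* was 0.42 and 0.61. Over all 68 cells and 10268 genes its most similar profiles were *Npas4* (0.65), *Jun* (0.64) and *Ppp1r15a* (0.64), all stress or activity response genes. For *Tet3* they were *Nr4a1* (0.51), *Plk2* (0.49) and *Bri3* (0.49), and for *Dnmt1* *Sap130* came first (0.51), followed by *Tet1* (0.48). All 7 PTZ-treated cells with *Gadd45b* also had *Gadd45g* and *Tet3*. The first genes for *Tet2* and *Dnmt3a* were *Gm37965* (0.54) and *Pfkl* (0.50).

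In the 23 HC nuclei the GADD45 genes were at 0 throughout. *Gadd45a*, *Gadd45b* and *Gadd45g* were each detected in 0 of 23, which allows a share of up to 13%, and none of the 3 had any counts. *Dnmt3a* was the most often detected member, in 14 nuclei (60.9%, from 38.5 to 80.3%), with a median of 5.77 and a highest level of 2749 TPM. *Tet2* was detected in 11 nuclei (47.8%) with a median of 0.91 TPM, *Tet3* in 5 nuclei (21.7%, from 7.46 to 43.7%) with a highest level of 499 TPM, and *Dnmt1* in 3. *Tet1* was detected in 1 nucleus and *Dnmt3b* in 0. Between 0 and 3 members were detected in a nucleus, with a median of 2, and 5 nuclei had none. *Arc* was detected in 1 HC nucleus, at 3.87 TPM, and *Fos* in 0. Genes detected per nucleus numbered 3237 ± 371 (SD) in HC and 6281 ± 1539 (SD) in FOS- nuclei, so detection shares of these tables stand on different depths and platforms and were not compared.

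Set side by side, the order of detection within each group was not the same. In FOS+ nuclei it ran from *Tet3* and *Dnmt3a* (97.5% each) through *Tet2* (85.0%), *Gadd45g* (65%) and *Gadd45b* (47.5%) to the remaining genes at 12.5% or less. In FOS- nuclei *Dnmt3a* (97.6%) and *Tet2* (70.7%) came before *Tet3* (48.8%) and *Gadd45g* (22%). In FOS+ nuclei the intervals of neighbours overlapped from *Tet3* down to *Gadd45b*. In FOS- nuclei those of *Tet2* and *Tet3* overlapped, as did those of *Tet3* and *Gadd45g*. The order of such neighbours is therefore not settled. In saline-treated whole cells *Gadd45g* (78.9%), *Dnmt3a* (76.3%) and *Tet3* (71.1%) led with overlapping intervals, followed by *Dnmt1* (42.1%), *Tet2* (34.2%) and *Tet1* (28.9%), whose intervals also overlap. In HC nuclei the order was *Dnmt3a*, *Tet2*, *Tet3*, *Dnmt1* and *Tet1*, with overlapping intervals between each pair of neighbours.

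**Figure D5:**
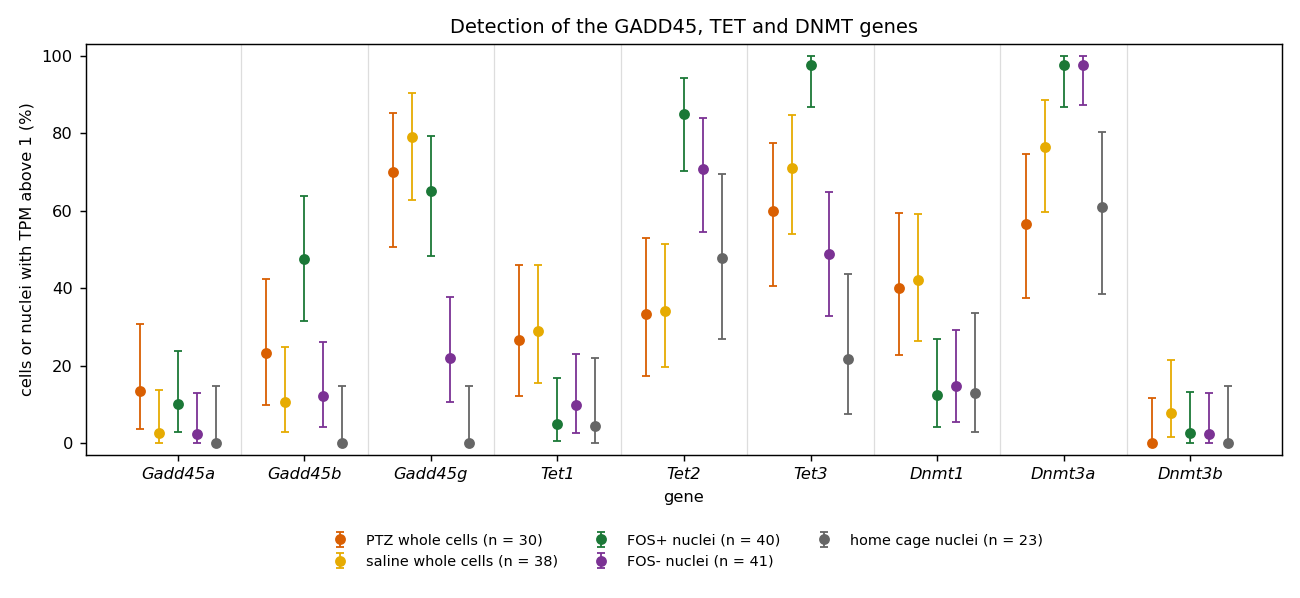
Share of cells or nuclei with a TPM above 1 (y axis, %) for each gene (x axis) in the 5 groups (colours), with exact 95% intervals over cells or nuclei as bars. *Tet3*, *Gadd45g* and *Gadd45b* have intervals that do not overlap between FOS+ and FOS- nuclei. For every gene shown the intervals overlap between both groups of whole cells. How often such intervals overlap among all genes assessed was not computed for either comparison.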

How the data were processed

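Reads from 82 whole cells, 96 NE nuclei and 23 HC nuclei were processed by the authors, who trimmed them and used RSEM with, per the submitters' processing notes, Bowtie 1.0.0 and the mouse build mm10 (GRCm38). The deposited expected counts are reads that RSEM assigned to a gene, shared out where a read fits several genes, and are not normalized. The deposited TPM values come from the same RSEM runs and are linear, scaled to gene length and to each cell's total. No UMIs or strand information were used.

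Groups follow the labels. Whole cells and NE nuclei were kept above 50000 total counts and above the table's mean minus 2 SD of genes with a TPM above 1. For whole cells this gene limit was below 0 (-5.39), so only the count limit acted there. The kept cells are not exactly those of the study, which also used unique alignments and spike-ins, and no FOS+ nuclei were set apart by their expression. Because a group is 1 mouse or 1 pool, no test was run, although the study compared cells with edgeR. Genes were assessed if detected (TPM above 1) in at least 10% of both groups' cells and called at a difference of 2 in mean log2(TPM + 1). Detection shares have exact Clopper-Pearson 95% intervals, and differences of shares combine these. Where none were detected, the share said to be allowed is instead 3 divided by the number of cells. That value lies below the upper limit of the exact interval. CPM ratios use counts summed over a group and scaled to its total, with exact binomial intervals. Scripts ran in Python 3.11.15 (scipy 1.17.1) and R 4.3.3, with edgeR 4.0.16 (TMM) and DESeq2 1.42.0 (size factors) as alternative scalings. Gene positions are from GENCODE M21 (GRCm38), and all 9 genes had a RefSeq promoter window. No protein sequences were used here.

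The members and the pathway lists were chosen with earlier results of these data known. The text names all 9 members, the pathway genes past the rule or with the largest differences, and up to 3 of the most similar genes of a member. Some genes are not reported here. *Ogt* and *Fgf1* were picked with their values in view. Alternatives were all deposited cells, other scalings, pseudocounts of 0.1 and 10, no filter, other size rules and detection limits, thinning, single amplification conditions and leaving out each cell. Leaving out cells with markers of other types was added after seeing the data.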

Additional observations from a re-analysis of the deposited data

How the results depend on the processing

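The calls on *Gadd45b*, *Gadd45g* and *Tet3* in FOS+ nuclei were the same 3 genes under all 13 alternatives, with *Tet2* added at a difference of at least 1 and *Dnmt1* (lower) at a summed CPM ratio of at least 4. In whole cells the count of members past the rule was 0 except for 1 at the CPM ratio (*Gadd45b*) and 1 without cells with an interneuron marker above 100 TPM (*Dnmt3a*, lower). Of the pathway genes in nuclei, 3 passed the rule, against 1 (*Bdnf*) with all deposited cells or a pseudocount of 10, 5 with a pseudocount of 0.1 or at the CPM ratio, and 6 at a difference of at least 1. In whole cells 0 passed, against 2 with a pseudocount of 0.1, 5 at a difference of at least 1 or at 20 percentage points of detection, and 8 without cells with an interneuron marker, where 11 and 13 cells were left. For most of these alternatives the share of all genes past the rule was not computed, so the counts have no background to be read against. The cause of the changes in count was not tested. Of 99 alternative detection differences of members in nuclei 91 stayed within the interval of the reported one, as did all 63 in whole cells. The 8 others were mostly values within a single amplification condition, among them -9.09 percentage points for *Tet2* at 10 µM TSO and ERCC 1:2000. With any 1 cell left out, the *Tet3* difference in nuclei stayed between 4.08 and 4.37, that of *Gadd45g* between 4.01 and 4.37 and that of *Gadd45b* between 3.14 and 3.48.

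No paired analysis was possible because no result comes from a test and cell numbers, given in accession order, pair no cells. The FOS+ and FOS- nuclei share the amplification conditions, and the differences within each are given above. Each group is 1 mouse or 1 pool, so differences between mice and between groups cannot be told apart in whole cells, and the FOS+ and FOS- nuclei show 1 mouse. At these depths RNA at low level can go undetected, so a value of 0 does not show absence.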
